A study of Drosophila melanogaster and Drosophila virilis and Drosophila yakuba with 44 samples.

Results

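The 10 genes described here belong to the Polycomb and trithorax groups of Drosophila melanogaster. The members are Pc, ph-p, ph-d, and Psc of Polycomb repressive complex 1 (PRC1), E(z), Su(z)12, esc, and Pcl of Polycomb repressive complex 2 (PRC2), and trx and ash1 of the trithorax group. They were chosen by name, as the rows of the D. melanogaster count tables that carry these symbols, and make up 10 of the 13458 genes in the tables.

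The study sequenced the 3′ ends of polyadenylated RNA (3′-seq) in 23 D. melanogaster samples and total RNA in 3 of them, with 1 library per condition and no genetic or drug treatment. The 10 cultured lines were gm2, mbn2, cmel1, BG3, mldmd16_c3, Dmd4, Dmd32, Dmd20, OSS (a somatic line from the ovary), and S2R+. The 6 embryo collections spanned 0–45′, 45–90′, 90′–6h, 6–12h, 12–18h, and 18–24h. The 7 adult libraries came from flies 2–5 days old and comprised testis, head of mated females, ovary, male and female whole flies, and male and female carcass, which is the body without head and gonads. Head, ovary, and testis were taken from Canton S flies. The same RNA of head, ovary, and testis was also used for total RNA-seq. As whole flies contain the dissected organs and carcass contains the rest of the body, the adult libraries are not independent samples of one condition. For trx and esc, D. virilis libraries were also used, again with 1 per condition. They were 3′-seq and total RNA-seq of head of mated females, ovary, and testis, from flies 2–5 days old. To these came 3′-seq of embryos at 0–12h, 12–24h, 24–36h, and 36–48h.

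Polycomb group proteins keep developmental genes silent once they have been turned off, and the Hox genes are their best known targets in flies. PRC2 methylates a lysine of histone H3 through its catalytic subunit E(z), and PRC1 contains Pc, which binds this mark, together with Ph and with Psc, a protein that can compact chromatin. Trithorax group proteins counter this silencing, and both trx and ash1 encode histone methyltransferases. The mothers of fly embryos load many of these transcripts into the egg.

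The 3′-seq libraries held 477958 to 9793900 counted reads in cultured lines, 42379 to 5546261 in embryos, and 1519235 to 15693295 in adult samples, and the RNA-seq libraries held 23089872 to 66969674. Levels are in CPM, the reads of a gene scaled to the library's size, with TMM factors that take most genes as equal between libraries. A count of 0 allows up to 3 reads, which was 35.8 CPM in 45–90′ embryos and at most 4.52 CPM in the other 22 libraries. The 45–90′ library held 0 to 7 reads per member and is left out of the levels below unless named. Labels were checked against the summed CPM of marker genes. The sums of photoreceptor, testis, and ovary germline markers were highest, among the 23 libraries, in head, testis, and ovary. Of the ovary germline markers grk went the other way, with 16.2 CPM in ovary, 43.3 CPM in female whole flies, and 38.0 CPM in S2R+. The library of male whole flies held markers of both sexes. Its male accessory gland markers, at 3982 CPM, were the highest of the 23 libraries and at 0 CPM in female whole flies, its testis markers had 312.7 CPM, against 14.8 CPM in female whole flies, and its markers of follicle and somatic ovary cells had 196.5 CPM, against 8002 CPM in female whole flies. Male whole flies also held 559 CPM of the ovary germline markers osk, nos, bcd, grk, and vas. That was 37.9% of their sum in female whole flies. By itself osk had 334 CPM in male whole flies but 1.70 CPM in testis and 1.63 CPM in male carcass. In contrast, grk had 20.2 CPM in male whole flies and 32.6 CPM in male carcass. The markers osk, nos, and grk were lower in male than in female whole flies. The markers bcd (51.1 against 18.7 CPM) and vas (13.1 against 9.35 CPM) were higher in males. The part of this signal in the results on male whole flies was not tested. In these bulk samples, fewer cells of a type and less RNA per cell cannot be told apart.

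Of the 10 members 9 had reads, and esc had none. The gene esc encodes the WD-repeat subunit of PRC2 that binds methylated histone H3. It was listed at 0 in all 26 D. melanogaster libraries. In dm6, esc lies on the minus strand of chromosome 2L from 11827204 to 11829405, wholly within an intron of Pde1c, a gene of the same strand that spans 11814156 to 11928572 and shares 0% of the exon bases of esc. Pde1c had 7752 3′-seq reads over the 23 libraries. Of the 493 genes in the table that lie inside another gene of the same strand, 468 (94.9%) had no read in any library, against 332 of 10612 genes (3.13%) that lie inside no other gene. A count of 0 for esc is therefore shared with nearly all genes in such a position, and no level of esc is given. Its paralog escl, which can take its place in PRC2, had 7494 3′-seq reads.

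The other 9 members were each detected in every D. melanogaster library but the shallow 45–90′ embryos, with the exception of ph-d in female carcass. The median level of a member over these 22 libraries ranged from 6.91 CPM for ph-d to 40.3 CPM for Su(z)12. The span between the highest and the lowest library differed between members, from 9.65-fold for Su(z)12 to 43.6-fold for Psc, leaving out ph-d, whose lowest library had no read. The standard deviation of log2(CPM + 1) ranged from 0.84 for trx to 1.19 for Psc, beside a median of 1.07 over 5909 genes with a median level of at least 10 CPM. Of the 8 members in this set, 28.0% (trx) to 59.3% (Psc) of the genes had a smaller standard deviation.

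**Figure D1:**
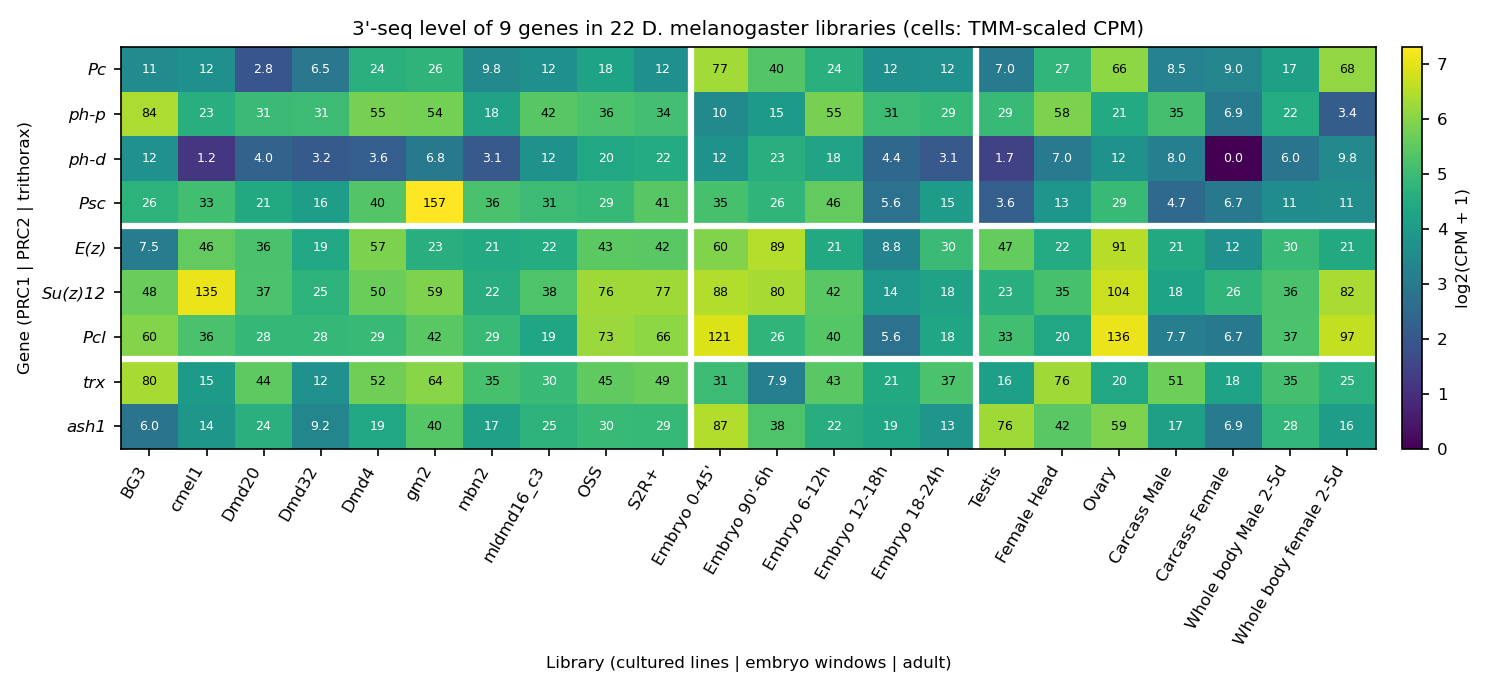
3′-seq level of each of 9 members (rows) in 22 D. melanogaster libraries (columns), with cultured lines, embryo windows, and adult libraries in separate blocks; color shows log2(CPM + 1) and the printed values are CPM. Pc, E(z), Su(z)12, Pcl, and ash1 are bright in ovary and 0–45′ embryos, whereas ph-p and trx are bright in BG3 cells and head, and Psc stands out in gm2 cells at 157 CPM.

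Pc encodes the chromodomain protein of PRC1 and lies on the minus strand of chromosome 3L from 21306138 to 21318020. Its level was 76.8 CPM in 0–45′ embryos, 39.5 CPM at 90′–6h, 23.7 CPM at 6–12h, 11.6 CPM at 12–18h, and 12.0 CPM at 18–24h. The 10 cultured lines had at most 25.8 CPM (gm2), with a median of 11.7 CPM and a lowest value of 2.84 CPM in Dmd20. Adult libraries ranged from 7.0 CPM in testis to 68.4 CPM in female whole flies, with ovary at 66.5 CPM and a median of 16.7 CPM. Pc was thus highest in 0–45′ embryos, female whole flies, and ovary.

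The tandem genes ph-p and ph-d encode the closely related Polyhomeotic proteins, whose SAM domains link PRC1 particles. They lie next to each other on the minus strand of chromosome X, with ph-d from 2115727 to 2123286 and ph-p from 2126210 to 2138371, and a gap of 2923 bp between them. As the copies share long stretches of sequence, the division of reads between them is uncertain. The level of ph-p was 10.4 CPM in 0–45′ embryos, 14.8 CPM at 90′–6h, 54.8 CPM at 6–12h, 31.2 CPM at 12–18h, and 28.7 CPM at 18–24h. Cultured lines had 17.6 CPM (mbn2) to 84.4 CPM (BG3), with a median of 35.1 CPM. Among adult libraries it was highest in head at 57.7 CPM, with a median of 22.1 CPM and a lowest value of 3.45 CPM in female whole flies. The order was thus unlike that of Pc, with ovary (21.0 CPM) and the earliest embryos among the lower libraries.

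The second copy, ph-d, had 30.0 CPM in ovary by total RNA-seq (2251 reads) and 12.4 CPM by 3′-seq (141 reads). It had at most 154 reads in any 3′-seq library. Its level was 12.3 CPM in 0–45′ embryos, 23.0 CPM at 90′–6h, 18.1 CPM at 6–12h, 4.39 CPM at 12–18h, and 3.15 CPM at 18–24h. Cultured lines ranged from 1.21 CPM in cmel1 to 21.7 CPM in S2R+, with a median of 5.38 CPM. Adult libraries ranged from no read in female carcass, which allows up to 0.672 CPM, to 12.4 CPM in ovary, with a median of 7.05 CPM.

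Of the 3′-seq reads on the tandem, ph-p took the larger share in most libraries. Its share was over 50% in 19 of 22 libraries with the 95% Wilson interval wholly above 50% in each. It lay wholly below 50% in 2 libraries, at 25.9% of 27 reads in female whole flies (interval 13.2–44.7%) and 39.1% of 110 reads in 90′–6h embryos (30.5–48.4%). In 0–45′ embryos the share was 45.8% (37.8–54.0%). The assays differed on this point. Total RNA-seq gave ph-p 55.6% of reads in testis (48.8–62.2%), 61.7% in head (60.1–63.3%), and 12.4% in ovary (11.2–13.8%), whereas 3′-seq gave 94.5% in testis, 89.1% in head, and 62.9% in ovary. The counts cover different parts of the transcripts, and these intervals cover counting error only.

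**Figure D2:**
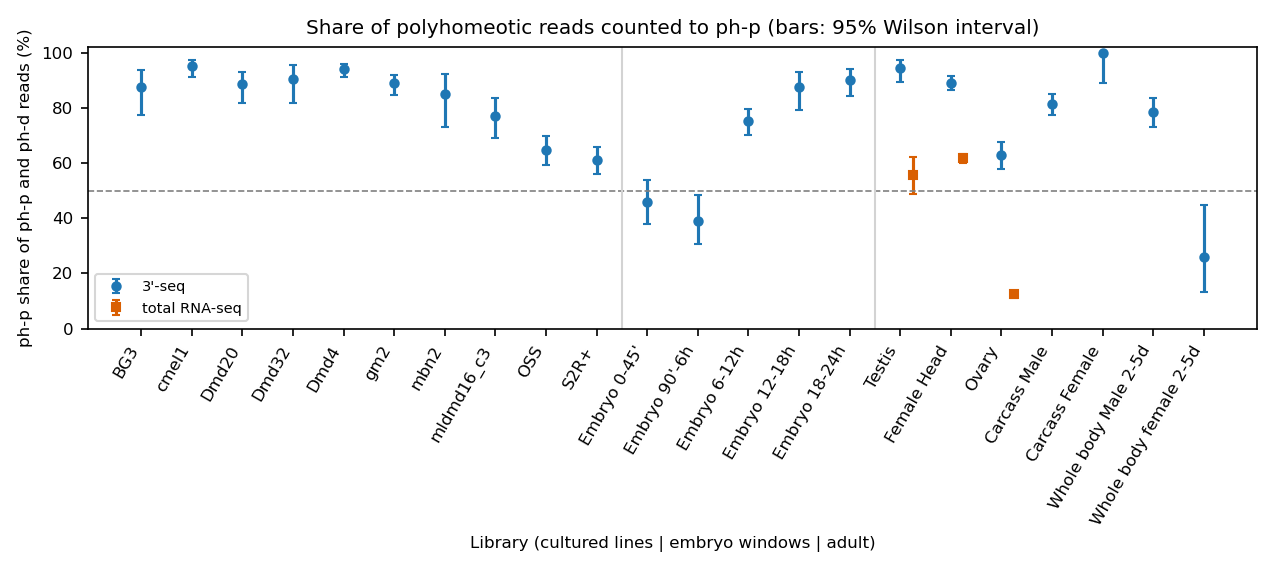
Share of the reads on ph-p and ph-d that were counted to ph-p (percent, y axis) in 22 3′-seq libraries (circles) and 3 total RNA-seq libraries (squares); bars are 95% Wilson intervals and the dashed line marks 50%. Female whole flies (25.9%) and 90′–6h embryos (39.1%) lie below the line with their whole intervals, and RNA-seq lies lower than 3′-seq in testis, head, and ovary.

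Psc encodes a ring finger protein of PRC1 and lies on the minus strand of chromosome 2R from 12965997 to 12980994. Its level was 35.3 CPM in 0–45′ embryos, 26.5 CPM at 90′–6h, 45.7 CPM at 6–12h, 5.59 CPM at 12–18h, and 15.3 CPM at 18–24h. Cultured lines had 16.2 CPM (Dmd32) to 157 CPM (gm2), with a median of 32.3 CPM and 41.4 CPM in S2R+, the next line after gm2. Adult libraries had 3.60 CPM in testis, a median of 10.7 CPM, and 29.5 CPM in ovary. Each line thus had more Psc than each adult library other than ovary.

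E(z), the histone methyltransferase of PRC2, lies on the minus strand of chromosome 3L from 10634575 to 10638130. Its level was 60.1 CPM in 0–45′ embryos, 88.7 CPM at 90′–6h, 20.5 CPM at 6–12h, 8.79 CPM at 12–18h, and 30.4 CPM at 18–24h. In cultured lines it ranged from 7.54 CPM in BG3 to 57.0 CPM in Dmd4, with a median of 29.5 CPM. Adult libraries had 11.9 CPM in female carcass, a median of 21.7 CPM, and 91.1 CPM in ovary, with 46.8 CPM in testis. Of the embryo windows, 90′–6h was thus the highest for E(z), and 0–45′ for Su(z)12 and Pcl.

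Su(z)12, a zinc finger subunit needed for PRC2 activity, lies on the minus strand of chromosome 3L from 19918242 to 19923462. Its level was 88.0 CPM in 0–45′ embryos, 80.1 CPM at 90′–6h, 42.3 CPM at 6–12h, 14.0 CPM at 12–18h, and 17.6 CPM at 18–24h. Cultured lines had 22.3 CPM (mbn2) to 134.9 CPM (cmel1), with a median of 49.0 CPM. Adult libraries had 18.0 CPM in male carcass, a median of 35.0 CPM, and 103.6 CPM in ovary. The libraries above 80 CPM were thus cmel1, ovary, the embryos at 0–45′ and 90′–6h, and female whole flies at 82.2 CPM, before S2R+ at 76.5 CPM and OSS at 75.6 CPM.

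Pcl encodes a PHD finger protein that joins PRC2 and raises its activity on chromatin, and lies on the plus strand of chromosome 2R from 18135426 to 18139990. Its level was 120.9 CPM in 0–45′ embryos, 26.5 CPM at 90′–6h, 40.3 CPM at 6–12h, 5.59 CPM at 12–18h, and 18.5 CPM at 18–24h. Cultured lines had 18.9 CPM (mldmd16_c3) to 72.6 CPM (OSS), with a median of 32.6 CPM. Adult libraries had 6.72 CPM in female carcass, a median of 32.9 CPM, and 135.8 CPM in ovary, with 97.5 CPM in female whole flies. Pcl was thus high in ovary, in female whole flies, and in the earliest embryos.

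The 2 trithorax group members had different patterns. The gene trx lies on the minus strand of chromosome 3R from 14263358 to 14286903 and ash1 on the minus strand of chromosome 3L from 19590773 to 19598755. The level of trx was 31.3 CPM in 0–45′ embryos, 7.91 CPM at 90′–6h, 42.5 CPM at 6–12h, 20.8 CPM at 12–18h, and 36.9 CPM at 18–24h. Cultured lines had 12.0 CPM (Dmd32) to 79.9 CPM (BG3), with a median of 44.3 CPM. In adults trx was highest in head at 76.5 CPM, with 51.2 CPM in male carcass, a median of 24.6 CPM, and 16.3 CPM in testis. Like ph-p, trx was thus highest in head among adult libraries and in BG3 among lines, with 53 reads of trx in BG3. BG3 is a line from the larval nervous system. Its neuron markers (elav, nSyb, Syt1, and brp) summed to 135.7 CPM, against 167.8 CPM in Dmd20 and 3254 CPM in head. Other libraries were high too, with trx at 63.7 CPM and ph-p at 54.2 CPM in gm2.

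The level of ash1 was 86.9 CPM in 0–45′ embryos, 38.2 CPM at 90′–6h, 22.2 CPM at 6–12h, 19.2 CPM at 12–18h, and 13.0 CPM at 18–24h. Cultured lines had 6.03 CPM (BG3) to 40.2 CPM (gm2), with a median of 21.7 CPM. Adult libraries had 6.94 CPM in female carcass, a median of 27.7 CPM, 58.5 CPM in ovary, and 76.3 CPM in testis. Of the 9 members, ash1 was the only one with its highest adult level in testis with TMM. With library totals ash1 had 41.3 CPM in testis and 42.4 CPM in ovary.

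Later embryo windows were compared with 0–45′ embryos, whose RNA is laid down by the mother. With 1 library per window no test was possible, and a member was counted as higher or lower when its ratio was 2-fold or more. Of 9 members, 3 were lower and 0 higher at 90′–6h, where 37.4% and 16.4% of 7592 genes were lower and higher. Pcl was 4.57-fold lower (95% counting interval 3.61–5.85), trx 3.96-fold lower (2.56–6.39), and ash1 2.28-fold lower (1.85–2.82). With DESeq2's size factors in place of TMM, which moved the median log2 ratio of all genes to −0.06 from −0.52, 2 members (ph-d and E(z)) were higher and 2 (trx and Pcl) lower. Here and below, these size factors rest only on genes with a read in every 3′-seq library. Those are at most the 5277 genes with a read in the shallow 45–90′ embryos.

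At 6–12h, 5 members were lower and 1 higher than at 0–45′, beside 29% and 28.3% of 8329 genes. The higher member was ph-p, with 54.8 CPM at 6–12h against 10.4 CPM at 0–45′, a 5.28-fold difference (3.99–7.07). The lower members were Pc, E(z), Su(z)12, Pcl, and ash1. At 18–24h, 6 members were lower and 1 higher, beside 35.6% and 38.7% of 9442 genes. Pc was 6.43-fold lower (4.88–8.61), Pcl 6.55-fold lower (5.25–8.27), and ash1 6.68-fold lower (5.13–8.84), whereas ph-p was 2.77-fold higher (2.05–3.78). Its tandem copy ph-d was 3.91-fold lower (2.23–7.32), and the division of reads between the copies is uncertain. The median log2 ratio of the members at 18–24h was −1.97, against −0.08 over all genes. With DESeq2's size factors the split was 1 higher and 4 lower at 6–12h, and 2 higher (ph-p and trx) and 5 lower at 18–24h. These 3 comparisons share the 0–45′ library.

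**Figure D3:**
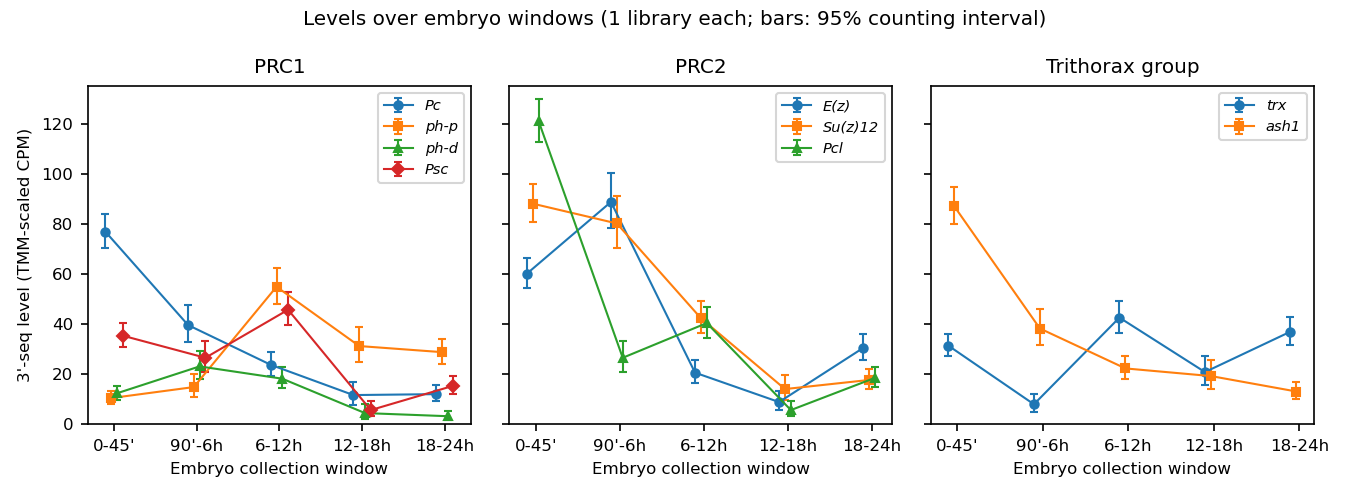
3′-seq level (CPM, y axis) of PRC1, PRC2, and trithorax group members over 5 embryo windows (x axis, early to late), 1 library per window, with 95% counting intervals as bars. Pc, Su(z)12, Pcl, and ash1 are highest in the earliest window and ph-p and trx at 6–12h (54.8 and 42.5 CPM).

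In the adult gonads, testis was set against ovary, a library that also serves in the comparisons of head, female carcass, and OSS cells below. The testis library held 435 CPM of male accessory gland markers, against 0.088 CPM in ovary. It also held 303 CPM of muscle markers, against 61.1 CPM in ovary. The part of such tissue in the ratios was not tested. In 3′-seq, 0 of 9 members were higher and 5 were lower in testis, where 39.6% of 10385 genes were higher and 34.2% lower. Pc had 7.0 CPM in testis and 66.5 CPM in ovary, a level 9.50-fold lower in testis (6.71–13.9). Psc was 8.18-fold lower (5.04–14.2), ph-d 7.32-fold lower (3.62–17.3), Su(z)12 4.48-fold lower (3.68–5.51), and Pcl 4.13-fold lower (3.50–4.91). The other members were closer between the gonads, and ash1 had a ratio of 1.30 (1.14–1.48), ph-p 1.38 (1.11–1.71), trx 0.83 (0.63–1.08), and E(z) 0.51 (0.44–0.60). The median log2 ratio was −2.05 over members and 0.05 over all genes.

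The RNA-seq libraries of the same RNA gave 0 members higher and 6 lower in testis, where 43.8% of 11068 genes were higher and 31.2% lower. The same 5 members were lower, with Pc 7.64-fold lower (6.57–8.93), and E(z) was 2.70-fold lower (2.48–2.94). With DESeq2's size factors on the 3′-seq counts, which moved the median log2 ratio of all genes to 1.23, 3 members (Pc, ph-d, and Psc) were lower and 2 (ph-p and ash1) higher in testis. Levels of Pc, ph-d, and Psc were thus lower in testis under each scaling and in both assays.

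Head differed from ovary in both directions. In 3′-seq, 2 members were higher and 5 lower in head, beside 36.6% and 38.2% of 9603 genes. The higher members were trx, with 76.5 CPM in head and 19.7 CPM in ovary (3.88-fold, 3.33–4.52), and ph-p, with 57.7 CPM in head and 21.0 CPM in ovary (2.74-fold, 2.35–3.20). Pcl was 6.87-fold lower in head (5.90–8.05), E(z) 4.20-fold lower (3.61–4.91), Su(z)12 2.96-fold lower (2.62–3.35), Pc 2.47-fold lower (2.14–2.86), and Psc 2.23-fold lower (1.81–2.76). RNA-seq gave 2 higher and 4 lower, beside 38.9% and 36.9% of 10183 genes. There trx was 4.09-fold higher in head (3.95–4.23) and ph-p 12.6-fold higher (11.2–14.2), with 320 reads in ovary. The tandem copy ph-d was 1.76-fold lower in head by 3′-seq (1.31–2.40) and had a ratio of 1.11 by RNA-seq (1.04–1.19). The division of reads between the copies is uncertain. With DESeq2's size factors on 3′-seq, which moved the median log2 ratio of all genes to 0.80 from −0.26, trx and ph-p remained higher and E(z) and Pcl lower, and the other members were within 2-fold.

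**Figure D4:**
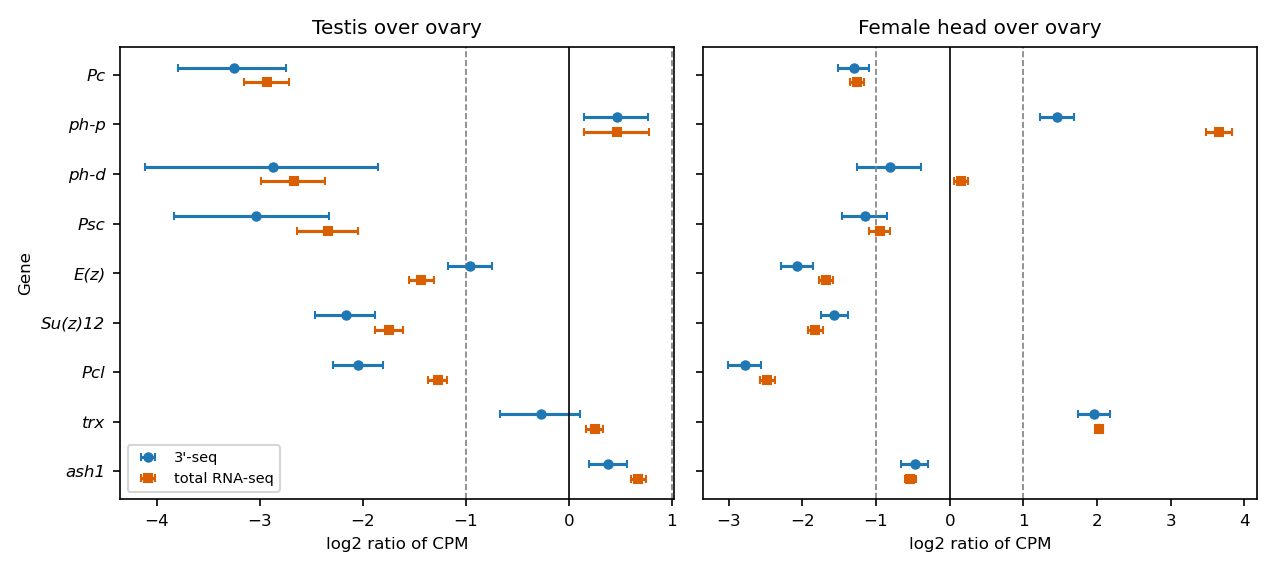
Log2 ratio of CPM (x axis) of testis over ovary (left) and female head over ovary (right) for 9 members (rows), in 3′-seq (circles) and total RNA-seq (squares); bars are 95% counting intervals and dashed lines mark 2-fold. Pc, ph-d, Psc, Su(z)12, and Pcl lie left of the dashed line in testis in both assays, and only trx and ph-p lie right of it in head.

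Within the female, ovary was set against the carcass. In ovary 8 members were higher and 0 lower, beside 49.5% and 28.2% of 9266 genes. Pcl had 135.8 CPM in ovary and 6.72 CPM in female carcass (20.2-fold, 14.1–30.1), ash1 was 8.44-fold higher (5.89–12.5), E(z) 7.68-fold (5.83–10.3), and Pc 7.42-fold (5.40–10.5). The level of ph-d was at least 18.5-fold higher in ovary when the 0 reads of carcass were set to the floor of 3, and the lower 95% counting limit of the ratio with 141 against 0 reads was 14.8. The exception was trx, with 19.7 CPM in ovary and 17.9 CPM in carcass (1.10-fold, 0.85–1.44). The median log2 ratio was 2.89 over members and 0.98 over all genes. With DESeq2's size factors, which moved the median of all genes to −0.56, 5 members (Pc, ph-d, E(z), ash1, and Pcl) were higher and trx was lower in ovary.

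In testis against male carcass, 3 members were higher and 2 lower, beside 38.4% and 35.1% of 11202 genes. Higher in testis were ash1 (4.54-fold, 3.76–5.49), Pcl (4.24-fold, 3.20–5.66), and E(z) (2.27-fold, 1.87–2.77), and lower were ph-d (4.69-fold, 2.27–11.2) and trx (3.14-fold, 2.46–4.04). With library totals, 2 members (ash1 and Pcl) were higher and the same 2 lower, and E(z) was within 2-fold. Pc had 7.0 CPM in testis and 8.46 CPM in male carcass. Pc was thus past 2-fold between gonad and carcass in females and within 2-fold in males, and the difference between the sexes was not tested.

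Male whole flies held less Pc, Su(z)12, and Pcl and more ph-p than female whole flies. Here 1 member was higher and 3 were lower, beside 51% and 5.85% of 10992 genes. Pc had 16.7 CPM in male and 68.4 CPM in female whole flies (4.10-fold lower in males, 3.22–5.23), Pcl was 2.64-fold lower (2.20–3.16), and Su(z)12 2.30-fold lower (1.89–2.79). For ph-p, 22.1 CPM in males and 3.45 CPM (7 reads) in females gave a 6.40-fold difference (3.05–16.2). Its tandem copy ph-d had 6.00 CPM in males and 9.85 CPM in females, and the division of reads between the copies is uncertain. With library totals, which moved the median log2 ratio of all genes to 0.36 from 1.04, ph-d was also lower (1 higher and 4 lower, beside 37.5% and 14.3% of genes). The ovary germline markers in the male library are given above.

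OSS cells, which derive from somatic cells of the ovary, were set against whole ovary. In OSS 1 member was higher and 2 were lower, beside 22% and 37.2% of 8711 genes. The level of trx was 2.27-fold higher in OSS (1.89–2.74), Pc was 3.69-fold lower (2.98–4.62), and E(z) 2.10-fold lower (1.82–2.43). With library totals, which moved the median log2 ratio of all genes to 0.20 from −0.59, 3 members (ph-p, ph-d, and trx) were higher and 1 (Pc) lower. Psc had 28.9 CPM in OSS and 29.5 CPM in ovary.

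To test for differences between the classes of library, the 10 cultured lines and the 6 embryo windows were each compared with the 7 adult libraries by edgeR's quasi-likelihood test with Benjamini-Hochberg adjustment over 9118 genes. The libraries of a class are different lines, windows, or tissues, so the spread in this test is that between conditions. Psc was higher in cultured lines by 1.98 on the log2 scale (SE 0.49, adjusted p = 0.00515), and was the 1 member of 9 called. Over all genes 4.89% were called higher and 19.1% lower in lines, and 9.11% and 13.3% with library totals. The ranges overlapped, with 16.2 to 157 CPM in lines and 3.60 to 29.5 CPM in adult libraries, and ovary was the adult library within the range of the lines. Without gm2, Psc was higher in lines by 1.47 (edgeR adjusted p = 0.0107), and without male whole flies by 2.03 (adjusted p = 0.0113). Psc was past the threshold of 0.05 in each of 23 fits that left out 1 library. Of these, 6 left out an embryo window, which is in neither group compared here. Psc was not past the threshold without the 4 whole-fly and carcass libraries (log2 1.74, edgeR adjusted p = 0.121).

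The other members had smaller or less certain differences between lines and adult libraries. Pc had the lowest log2 difference, −1.11 (SE 0.49, edgeR adjusted p = 0.104), and E(z) was at −0.10 (SE 0.41, adjusted p = 0.892). The median log2 difference was 0.23 over members and −0.33 over all genes. In embryos against adult libraries 0 of 9 members were called by edgeR or by DESeq2, and 1, Psc, was under 0.05 before adjustment. Psc was at a log2 difference of 1.19 (SE 0.52) there, with an adjusted p = 0.191 by edgeR's quasi-likelihood test. There 0.932% of all genes were called higher and 3.37% lower, and 1.61% and 2.50% with library totals.

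**Figure D5:**
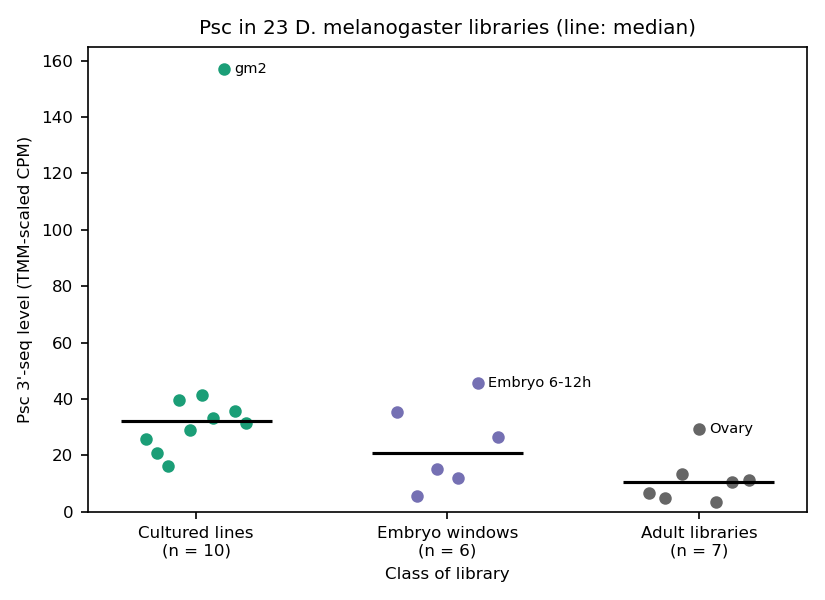
Psc level in CPM (y axis) in each of 23 3′-seq libraries, grouped as 10 cultured lines, 6 embryo windows (45–90′ included, with 1 read), and 7 adult libraries; lines mark medians and the highest library of each class is named. All lines lie at or above 16.2 CPM and all adult libraries but ovary lie at or below 13.2 CPM.

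Other genes of the Polycomb and trithorax groups were examined from a list of 27, with 3 PRC1 genes and partners, 4 of PRC2, 3 of the DNA-binding complex PhoRC, 2 of the deubiquitinase PR-DUB, and 15 other trithorax group genes. In lines against adult libraries, 26 were tested, and 2 were higher and 0 lower by edgeR, beside 4.89% and 19.1% of all genes. The PRC2 genes escl (log2 1.51, edgeR adjusted p = 0.00201), with a median of 79.1 CPM in lines and 20.7 CPM in adult libraries, and Caf1-55 (log2 1.34, adjusted p = 0.0349), with 57.7 and 19.9 CPM in the same order, were the called genes. Trl, the GAGA factor gene, had 35 3′-seq reads and was not tested. In embryos against adult libraries 0 of the 26 were called by edgeR, beside 0.932% of all genes higher and 3.37% lower.

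In testis 15 of 26 listed genes were lower and 4 higher than in ovary, beside 34.2% and 39.6% of all genes, and their median log2 ratio was −1.32, against 0.05 over all genes. The largest differences were for phol, a paralog of the DNA-binding protein pho (15.1 CPM in testis and 235.7 CPM in ovary), mor, a subunit of the Brahma remodeling complex (47.7 and 529.8 CPM), and tna (376.3 and 38.1 CPM). In head 14 of 26 were lower and 3 higher than in ovary, beside 38.2% and 36.6% of all genes, with a median of −1.05 against −0.26. They were led by tna (714.0 CPM in head and 38.1 CPM in ovary), mor (54.8 and 529.8 CPM), and Caf1-55 (12.0 and 100.4 CPM). In ovary 20 of 26 were higher and 2 lower than in female carcass, led by Caf1-55, trr, and pho, beside 49.5% and 28.2% of all genes, with a median of 2.12 against 0.98. At 18–24h 19 of 25 were lower and 1 higher than at 0–45′, beside 35.6% and 38.7% of all genes, with a median of −1.60 against −0.08. They were led by calypso, a deubiquitinase (0.419 CPM at 18–24h, under the level of 3 reads, and 21.1 CPM at 0–45′), phol (31.7 and 361.8 CPM), and Scm (10.9 and 111.8 CPM).

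In the other comparisons fewer listed genes were past 2-fold. In testis 7 of 26 were higher and 5 lower than in male carcass, led by calypso, kto, and fs(1)h, beside 38.4% and 35.1% of all genes, with a median of −0.11 against 0.07. In OSS cells 4 of 26 were higher and 5 lower than in ovary, led by tna, Su(z)2, and Scm, beside 22% and 37.2% of all genes, with a median of −0.32 against −0.59. In male whole flies 5 of 27 were higher and 3 lower than in female whole flies, led by tna, calypso, and Su(z)2, beside 51% and 5.85% of all genes, with a median of 0.15 against 1.04. At 90′–6h 3 of 25 were higher and 2 lower than at 0–45′, led by tna, Scm, and phol, beside 16.4% and 37.4% of all genes, with a median of 0.01 against −0.52. At 6–12h 4 of 26 were higher and 6 lower, led by Su(z)2, tna, and Scm, beside 28.3% and 29% of all genes, with a median of −0.18 over the listed genes and over all genes. The list was chosen with earlier results of these data known, and these comparisons share libraries.

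Levels were further compared between members of a pair over the 22 libraries. Spearman's rho is given as a description, as all genes share the same libraries and their depth and scaling. Over the 36 pairs of members rho averaged 0.29 (SD 0.27), from −0.25 for ph-p and E(z) to 0.74 for Su(z)12 and Pcl, and 6 pairs were negative. The nearest member of ph-p was trx (0.71) and that of trx was ph-p, whereas E(z) was nearest to ash1 (0.66) and Pc to Su(z)12 (0.65). Among the 6 pairs of PRC1 genes, Pc and ph-p had a rho of −0.12, and the other 5 pairs ranged from 0.22 for ph-p and ph-d to 0.50 for Pc and ph-d. The genes nearest to the mean profile of the members, of 5909 genes with a median of at least 10 CPM, were CG1677 (0.89), CG12155 (0.87), Dp (0.87), ix (0.87), and ebo (0.86). Within this ranking Su(z)12 (0.77) was 33rd and ph-p (0.22) was 3095th. The members are part of the mean profile they are ranked against, unlike the other genes, so their ranks are not comparable with those of other genes.

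RNA-seq reads were also scaled to exon length, as a rough guide between genes. Exon lengths are from the Ensembl annotation, whereas reads were counted on the authors' extended gene models. Whether reads in introns were counted was not tested. Exons make up 2462 of the 11883 bp spanned by Pc but 4384 of the 4565 bp spanned by Pcl. The order of genes is therefore uncertain. In ovary E(z) had 30.9 RPKM, a read count scaled to exon length and library size, Pcl 28.7, Pc 28.1, and Su(z)12 19.0, while ph-p had 0.620. In testis ash1 led with 16.1 RPKM, before Pcl with 11.9 and E(z) with 11.5. In head trx led with 19.7 RPKM, before Pc with 11.8 and E(z) with 9.65. The gene with the highest 3′-seq level was the same in testis and head, and Pcl in place of E(z) in ovary.

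Of the members, trx and esc were also named in the D. virilis tables, and esc was at 0 there too. Of all genes of D. virilis, 35.6% were 2-fold higher and 34.4% lower in head than in ovary by 3′-seq, and 36% and 33.2% by RNA-seq. In D. virilis 3′-seq, trx had 129.4 CPM in head and 70.3 CPM in ovary (1.84-fold, 1.70–2.00), and in RNA-seq 422.7 and 198.9 CPM (2.13-fold, 2.08–2.18). In testis it had 17.7 CPM against 70.3 CPM in ovary, 3.98-fold lower (3.35–4.75), and in RNA-seq 1.98-fold lower (1.90–2.05), where 37.5% of 9919 genes were 2-fold higher and 34.9% lower by 3′-seq, and 40% and 31.1% of 10785 by RNA-seq. A higher level of trx in head than in ovary was therefore seen in both species. In testis trx of D. melanogaster was within 2-fold of ovary in both assays, and trx of D. virilis was within 2-fold by RNA-seq but not by 3′-seq. The D. virilis values are given with TMM only. D. virilis embryos had 107.2 CPM at 0–12h, 108.6 CPM at 12–24h, 94.7 CPM at 24–36h, and 82.2 CPM at 36–48h, windows that differ from those of D. melanogaster.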

How the data were processed

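Total RNA of each sample was used for 3′-seq, and the same RNA of head, ovary, and testis for stranded total RNA-seq. The deposited values are raw counts of reads per gene, which the authors made by trimming with Trimmomatic 0.36, aligning to dm6 with HISAT2 (version not given in the sources used here), and counting with featureCounts on their own gene models, extended at the 3′ end. The counting options for reads that fall in more than 1 gene are not given in the sources used here. The deposited counts also include D. yakuba and D. virilis tables, which name most genes by numbers. The paper lists a table of genes with orthologs in all 3 species. The numbers were not paired with D. melanogaster genes here, so the planned fits over 3 species were not run. Only trx and esc were read from D. virilis. No column of per-sample values was left unmapped (0).

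The members and gene lists were chosen with earlier results of these data known. Named were the 10 members, up to 3 genes per comparison of a list of 27 others with the largest log2 difference past the threshold, and the 5 genes nearest to the members' mean profile. Counts were scaled by TMM (edgeR 4.0.16 in R 4.3.3). Classes of library were compared by edgeR's quasi-likelihood test after filterByExpr, with Benjamini-Hochberg adjustment and a threshold of 0.05, and DESeq2 1.42.0 was an alternative. Pairs of libraries were compared by the ratio of CPM, for genes with at least 10 reads in 1 of the libraries, with exact 95% binomial intervals that cover counting error only, and a count of 0 was set to 3 reads. Likeness was computed on log2(CPM + 1), with a pseudocount of 1. The scripts were tested on simulated data. Python 3.11.15, pandas 2.3.3, numpy 2.4.6, scipy 1.17.1, and matplotlib 3.10.9 were used. Gene positions are those of the Ensembl annotation of dm6. Alternatives were other scalings, filters, folds, and sets of libraries.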

Additional observations from a re-analysis of the deposited data

Results flagged for a closer look

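In 4 of 27 groups of libraries a single library lay far above the others of its class by Dixon's test. The test's rate by chance of about 1 in 20 groups holds for independent values of a normal distribution. These groups hold CPM of different conditions, and the genes share the same libraries. The 4 groups can therefore not be set against that rate. Psc had 157 CPM in gm2 cells, and the next line had 41.4 CPM. Among adult libraries Psc had 29.5 CPM in ovary, and the next library had 13.2 CPM. Su(z)12 had 134.9 CPM in cmel1 cells, and the next line had 76.5 CPM. Among all 6 embryo windows, the 45–90′ library with 1 read of Pcl included, Pcl had 121 CPM at 0–45′, and the next window had 40.3 CPM. Without the 45–90′ library the gap was 0.699 of the range, under the limit of 0.71 for 5 windows, so this gap is past the limit only with that library. The libraries of a class are different lines, windows, or tissues, and the cause of these gaps was not tested.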

How the results depend on the processing

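Under the other scalings, filters, folds, and sets of libraries, 65 counts of members, median levels, and mean correlations stayed near their value and 4 counts of members did not. A count that stayed can hold other members: in testis against ovary 5 were past 2-fold with TMM (0 higher, 5 lower) and with DESeq2's size factors (2 higher, 3 lower). Of 306 values of single members, 196 were kept, 102 log2 ratios of library pairs left their counting interval, and 1 (Psc in lines, without whole flies and carcasses) lost its call. Without whole flies and carcasses, 0 members were called higher in cultured lines, against 1 in the full set. Members past the fold numbered 4 in head against ovary with DESeq2's size factors, against 7 with TMM. At a 1.5-fold threshold, 7 members were past it in OSS against ovary and 5 at 90′–6h against 0–45′ embryos, against 3 in each at 2-fold. In all, 24 values changed sign. Of these, 17 were among the 102 ratios, each within 2-fold with TMM, and 16 of them were within 2-fold in the other setting too, the exception being trx in ovary against female carcass (log2 −1.39 with DESeq2's size factors, 0.14 with TMM). The other 7 were differences between classes, past the threshold in neither setting. In cultured lines E(z) was at 0.23 and Pcl at 0.032 with library totals. In embryos ash1 was at 0.27 with library totals and 0.022 without the 45–90′ library, ph-p at −0.039 with no filter on low counts and −0.34 without whole flies and carcasses, and E(z) at −0.054 without these. The causes were not tested. Leaving out each of the 23 libraries in turn, an alternative chosen after seeing the data, kept the count of members called in both class comparisons at 1 to 1 higher and 0 to 0 lower in lines and 0 to 0 in embryos, with Psc at 1.47 to 2.32 (log2) in lines. Over all genes, calls in lines numbered 446 higher and 1740 lower, 831 and 1209 with library totals, 454 and 3419 with no filter, and 104 and 1284 without whole flies and carcasses. In embryos they numbered 85 and 307, 147 and 228 with library totals, 260 and 1453 with no filter, 52 and 463 without whole flies and carcasses, and 250 and 649 by DESeq2. No paired analysis was possible because each condition has 1 library. The fits intended over 3 species were not run. Low depth limits the 3′-seq levels of ph-d and the 45–90′ embryos.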
